A study of Mus musculus with 11 samples.

Results

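Hspa1a, Hspa1b and Dnajb1 encode the stress-inducible chaperone Hsp70, in 2 gene copies, and its Hsp40 partner. They were chosen by gene symbol and make up 3 of the 178 genes in the deposited table, and all 3 passed the filter on low counts. RNA was sequenced from gingival epithelium of B6 mice labelled male, lifted off the underlying tissue after Dispase digestion, in 11 libraries. The naive group (n = 4) went without a ligature. The ligature group (n = 3) carried silk tied around the upper second molars, a model of periodontitis, and in the removal group (n = 4) the silk was taken off on day 3. The labels give neither the day of tissue collection, nor the age of the mice, nor how many mice went into a library, nor whether libraries came from separate mice. The p-values therefore measure spread between libraries, which may be technical. The comparisons ask how the 3 transcripts differ with the ligature in place and after it has been taken off.

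Hsp70 binds unfolded stretches of other proteins and releases them in cycles driven by ATP. Dnajb1, a J-domain protein, delivers substrates to Hsp70 and stimulates its ATPase. Heat shock factor 1, the main activator of these genes, is held inactive by chaperones in unstressed cells and binds inverted repeats of the letters GAA, called heat shock elements, when unfolded protein accumulates. The genes respond within minutes to heat, oxidants and injury in keratinocytes as in most cells.

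To compare what lies ahead of the members' start sites, the 250 bases ahead of each start site are shown, from RefSeq on build GRCm38.p6; the submitters' processing notes name GRCm39, and no coordinate of that build is used here. Capitals mark matches to GAANNTTC or TTCNNGAA, a pair of inverted GAA repeats, each of which reads the same on both strands. The stretches are Hspa1a at chr17:34972157-34972406 (minus strand), Hspa1b at chr17:34959239-34959488 (minus strand) and Dnajb1 at chr8:83607925-83608174 (plus strand).
Hspa1a: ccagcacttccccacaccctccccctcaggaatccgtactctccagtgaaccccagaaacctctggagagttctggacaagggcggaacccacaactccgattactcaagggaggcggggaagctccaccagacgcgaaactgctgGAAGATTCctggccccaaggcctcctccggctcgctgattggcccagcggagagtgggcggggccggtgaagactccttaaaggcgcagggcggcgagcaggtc
Hspa1b: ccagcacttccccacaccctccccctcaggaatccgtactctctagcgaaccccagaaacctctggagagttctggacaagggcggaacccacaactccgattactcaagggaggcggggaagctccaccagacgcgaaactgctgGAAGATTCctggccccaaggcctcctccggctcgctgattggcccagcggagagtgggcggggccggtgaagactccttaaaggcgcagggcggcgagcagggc
Dnajb1: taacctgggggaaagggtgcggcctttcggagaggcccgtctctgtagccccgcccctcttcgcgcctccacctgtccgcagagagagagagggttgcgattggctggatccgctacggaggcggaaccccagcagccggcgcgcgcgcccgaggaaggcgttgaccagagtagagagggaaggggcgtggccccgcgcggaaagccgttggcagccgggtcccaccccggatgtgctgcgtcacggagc
The Hspa1a and Hspa1b stretches differed at 3 of 250 positions, and each held 1 match, GAAGATTC, from 104 to 97 bases ahead of the start. The Dnajb1 stretch held 0 matches, as did the one ahead of its other annotated start. Of 32851 mouse promoter stretches of this length, 12.8% held a match to either motif. Looser matches were not searched for and binding was not measured, so a match or its absence describes the letters alone.

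Hspa1a and Hspa1b are single-exon genes on chromosome 17, and near-identical copies, which bears on how their reads can be told apart. Their coding sequences in GENCODE M21 were 99.4% identical, with 8 mismatches and 3 gap positions. Among stretches of 90 coding bases without a gap, the first with the most differences, from base 1327 to 1416 of each, is shown. The differing bases are in capitals, and stretches across a gap were left out.
Hspa1a: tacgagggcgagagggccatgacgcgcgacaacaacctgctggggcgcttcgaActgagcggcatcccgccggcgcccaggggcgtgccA
Hspa1b: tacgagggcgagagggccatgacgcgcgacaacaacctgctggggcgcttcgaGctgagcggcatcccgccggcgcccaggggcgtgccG
Of the 50-base windows of the Hspa1a transcript, 58.8% were found letter for letter in Hspa1b, and of those of Hspa1b 62.3% in Hspa1a. At 100 bases the shares were 47.1% and 49.9%. The 5' untranslated regions were 98.7% identical, and the 3' untranslated regions (810 and 643 bases) 46.4%, so most letters that separate the copies lie behind the stop codon. How reads that match both copies were counted is not given in the sources used here, and the values of each copy are therefore uncertain as levels of that copy. Hspa1a is also overlapped over 2225 bases by the antisense gene model Gm20481; the library kit preserves strand, but the strand setting of the counting is not given in the sources used here. Dnajb1 had no overlapping gene in this annotation.

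**Figure D1:**
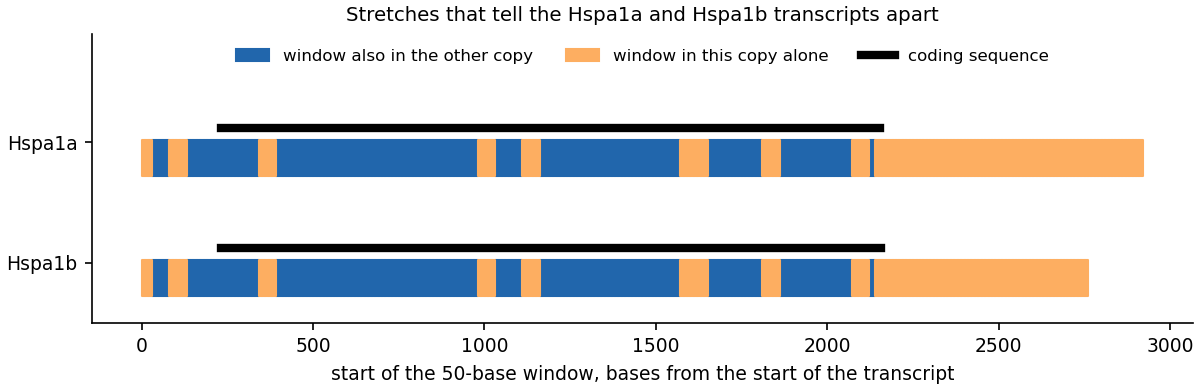
Start positions of 50-base windows along the Hspa1a and Hspa1b transcripts, in bases from the transcript start, coloured by whether the window also occurs in the other copy; the black bar is the coding sequence. Windows found in 1 copy alone fill the region behind the coding sequence and short stretches within it and ahead of it, and 58.8% of Hspa1a windows are shared.

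Counts over the 178 genes summed to 282274 to 503570 in a library, and the depth of the whole libraries is unknown. The largest unadjusted p of any of the 178 genes, taken in the better of both comparisons with naive (DESeq2 with a term for the library sets described next), was 0.0103. Genes of the table therefore look selected on these groups, so a call is not independent evidence, and adjusted p-values are not corrected over the transcriptome. The deposited batch-corrected values resolved the libraries into a pair of sets: set A (naive replicates 1 and 2, ligature replicate 1, removal replicates 2, 3 and 4) and set B (naive replicates 3 and 4, ligature replicates 2 and 3, removal replicate 1). The labels name no batch. Usp9y, on the Y chromosome, had 30 raw counts in removal replicate 1 and 0 in the other 10 libraries. All are labelled male, so it is the counts of 0 that sit oddly with the label. The sex of the mice was not settled here. Because removal replicate 1 stood apart, the main removal results are also given without it. Fits with TMM factors or a library set term were not run without it.

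With the ligature in place all 3 chaperone transcripts fell, Hspa1a to 39.2% of its naive level, Hspa1b to 56.6% and Dnajb1 to 57.4% by the fitted fold. Normalised read counts of Hspa1a (ENSMUSG00000091971) were 2075, 2148, 1487 and 1896 in naive replicates 1 to 4, against 793, 569 and 871 in ligature replicates 1 to 3. Those of Hspa1b (ENSMUSG00000090877) were 3528, 3949, 2529.9 and 3268 in naive and 2101, 1534 and 2002 in ligature libraries. For Dnajb1 (ENSMUSG00000005483) they were 6171, 7153, 5407 and 6727 in naive and 4213, 3237 and 3516 in ligature libraries. For all 3 genes the highest ligature library lay below the lowest naive library, which was naive replicate 3 each time. In the table as a whole 48.9% of the 176 genes tested were separated in this direction.

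**Figure D2:**
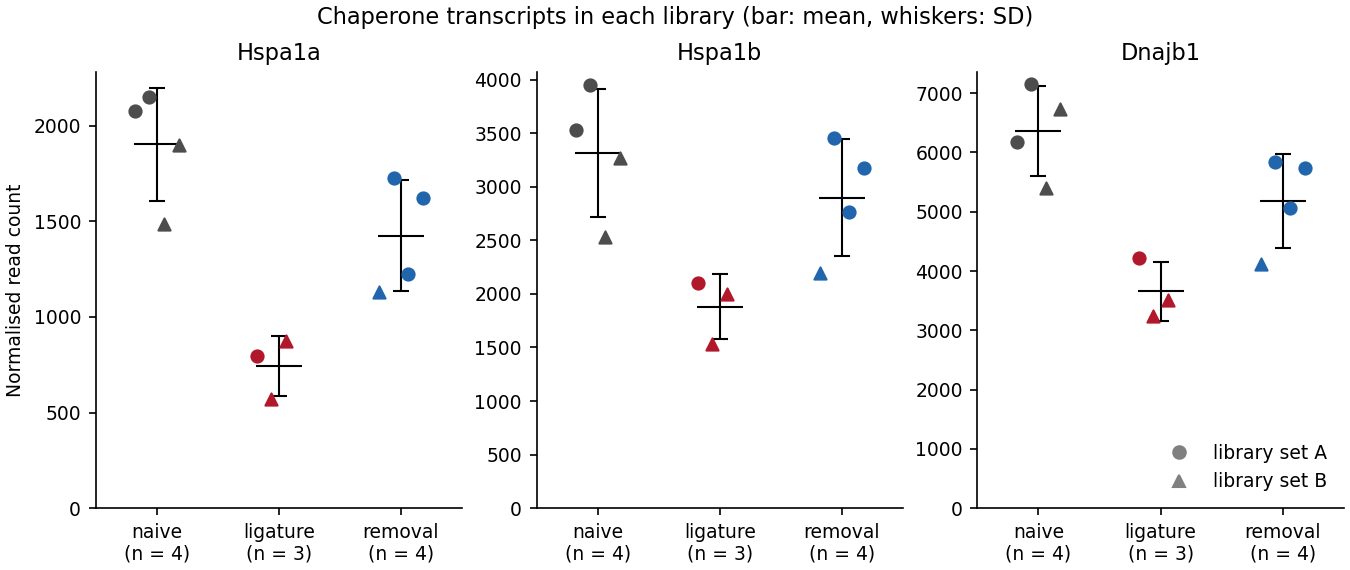
Normalised read counts of Hspa1a, Hspa1b and Dnajb1 in each library (points; circles and triangles mark the library sets A and B) with the mean (bar) and SD (whiskers) of the naive, ligature and removal groups. Ligature libraries lie below all naive libraries in each panel, and removal libraries overlap with naive ones in each.

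Hspa1a stood at 1901 ± 296 normalised counts in naive (SD, n = 4) and 745 ± 157 in ligature libraries (n = 3), and its fitted log2 difference was -1.35 ± 0.20 (± SE; adjusted p = 0.000341 in the quasi-likelihood test of edgeR). Hspa1b went from 3319 ± 596 to 1879 ± 303, with a log2 difference of -0.82 ± 0.18 (edgeR adjusted p = 0.00301). Dnajb1 went from 6365 ± 754 to 3655 ± 502, with a log2 difference of -0.80 ± 0.15 (edgeR adjusted p = 0.00115). All 3 members were called lower, in a table in which 56.8% of genes tested were. Hspa1a had the 20th lowest log2 fold change of 176, Hspa1b the 47th and Dnajb1 the 50th, and the median of all was -0.38. Scaling over the table with TMM factors moved that median to -0.02 and the members to -0.99, -0.46 and -0.44. Such factors assume that most genes of the table did not change. A table that looks selected on these groups may not meet that, here and wherever TMM values are given. All 3 were still called with TMM factors, against 29.0% of genes called lower. With the deposited size factors the calls held when any single library was left out. Log2 fold changes then ran from -1.48 to -1.19 for Hspa1a, -0.93 to -0.69 for Hspa1b and -0.91 to -0.72 for Dnajb1. With the counts of both copies added up, Hsp70 fell by 0.99 on the log2 scale (edgeR adjusted p = 0.00123). Since these are bulk samples, fewer cells that carry a transcript and less transcript per cell cannot be told apart.

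After removal the 3 transcripts were higher than with the ligature in place. Hspa1a stood at 1130.0, 1724, 1224 and 1620 normalised counts in removal replicates 1 to 4, all above the 871 of the highest ligature library. Hspa1b stood at 2199, 3457, 2761 and 3175, also above every ligature library, replicate 1 by a small margin over 2101. Dnajb1 stood at 4117, 5838, 5057 and 5740.1, so that removal replicate 1 overlapped with ligature replicate 1 at 4213. Each gene was lowest in removal replicate 1, the only removal library of set B. Among all genes tested, 23.3% were separated upward.

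Relative to ligature the log2 fold change was 0.94 ± 0.19 for Hspa1a, from 745 ± 157 (n = 3) to 1424 ± 291 (n = 4; edgeR adjusted p = 0.0221). It was 0.62 ± 0.18 for Hspa1b, which reached 2898 ± 547 (edgeR adjusted p = 0.0279), and 0.51 ± 0.15 for Dnajb1, which reached 5188 ± 794 (edgeR adjusted p = 0.0276). All 3 were called higher, where 17.0% of genes were. Hspa1a ranked 12th from the top of 176, Hspa1b 26th and Dnajb1 36th. With TMM factors all 3 were again called higher, against 9.66% of genes, at 0.77, 0.46 and 0.35. With the deposited size factors and without removal replicate 1 the calls held at 1.03, 0.74 and 0.60, where 21.7% of genes were called higher. Leaving out some other libraries ended the chaperone calls. The Hspa1a call was lost without ligature replicate 1 or 2 or removal replicate 2 or 4 (log2 fold changes of 0.98, 0.78, 0.83 and 0.87; highest edgeR adjusted p = 0.0602). The Hspa1b and Dnajb1 calls were lost without any 1 of the 3 ligature libraries or of removal replicates 2, 3 and 4 (0.50 to 0.71 and 0.42 to 0.62, highest edgeR adjusted p = 0.116 for both). Over the whole table the count of calls in this comparison fell from 35 to between 0 and 21 in those 6 fits.

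Between removal and naive no chaperone passed the test, and 24.4% of genes in the table were called lower. On the log2 scale Hspa1a differed from naive by -0.42 ± 0.17 (edgeR adjusted p = 0.0702), Dnajb1 at -0.29 ± 0.13 (adjusted p = 0.0881) and Hspa1b at -0.20 ± 0.17 (adjusted p = 0.318), with unadjusted p under 0.05 for Hspa1a (0.0335) and Dnajb1 (0.0465). The median of all tested genes was -0.17. Groups overlapped for all 3 genes in normalised counts, where 27.8% of genes were separated downward. With a term for the library sets all 3 were called lower, at -0.49, -0.37 and -0.29 for Hspa1a, Dnajb1 and Hspa1b (edgeR adjusted p = 0.0139, 0.00801 and 0.0406), where 48.9% of genes were called lower. In the authors' batch-corrected values Hspa1a ranged from 1617 to 2003 in naive and 1096 to 1587 in removal libraries, and Dnajb1 from 5722 to 6857 and 4644 to 5474, both without overlap. Hspa1b overlapped there (2861 to 3639 against 2480 to 3159). Separation downward was seen for 40.3% of genes in those values. Within a set the corrected values followed a single straight line per gene over all groups. The sets are unequally spread over the groups, so the correction can itself move group means. The Hspa1a mean went from 1424 to 1368 in removal and from 1901 to 1882 in naive libraries. Its part in the separation was not tested. With TMM factors the log2 values were -0.22, -0.10 and 0.01 for Hspa1a, Dnajb1 and Hspa1b, and none was called, where 13.1% of genes were called lower. Without removal replicate 1 they were -0.32, -0.20 and -0.08 in the same order, with the deposited size factors and no call. In that fit 18.3% of genes were called lower. Hspa1a was called without naive replicate 3 or without removal replicate 2, at -0.52 in both (edgeR adjusted p = 0.0422 and 0.0456). The comparisons of ligature and of removal with naive share the naive libraries.

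**Figure D3:**
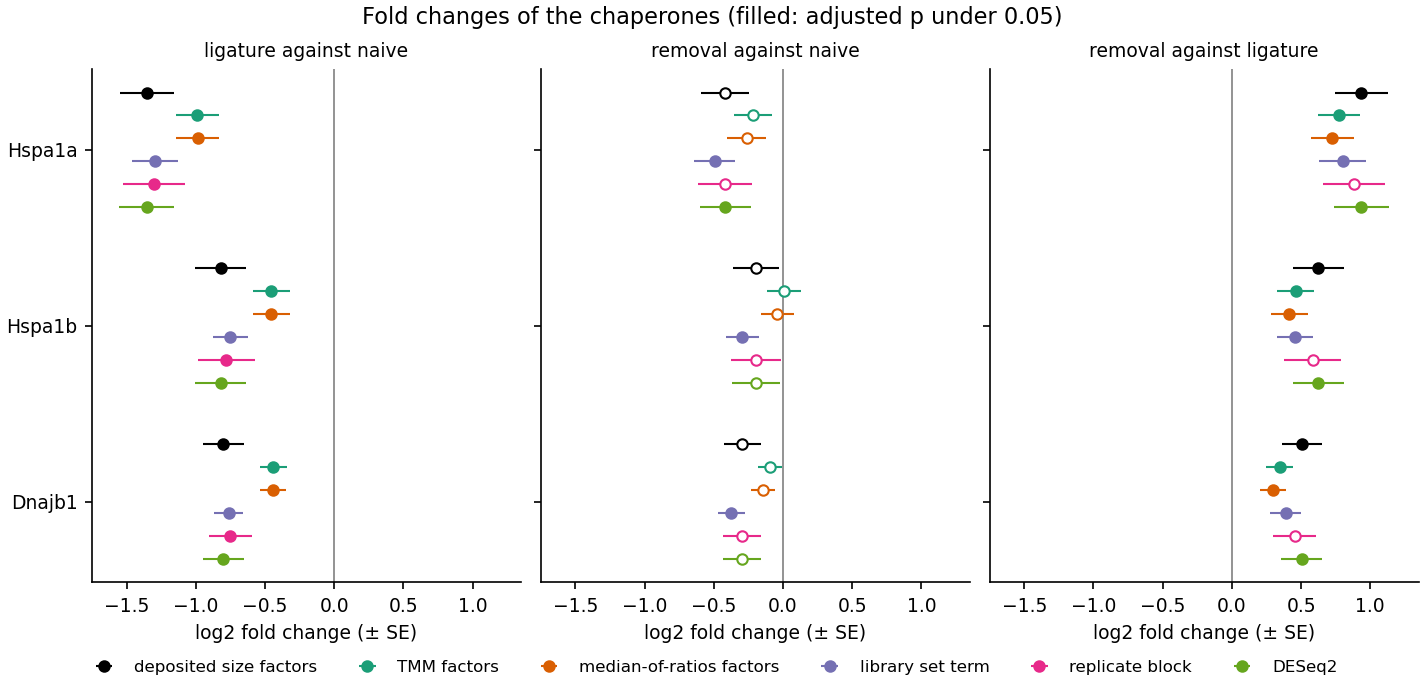
Log2 fold changes ± SE of the 3 chaperones in each comparison under 6 ways of fitting (colours); filled points passed an adjusted p of 0.05. Ligature against naive is filled throughout, removal against naive is filled for all 3 genes with the library set term and for Hspa1a with DESeq2, and removal against ligature is open with the replicate block.

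**Figure D4:**
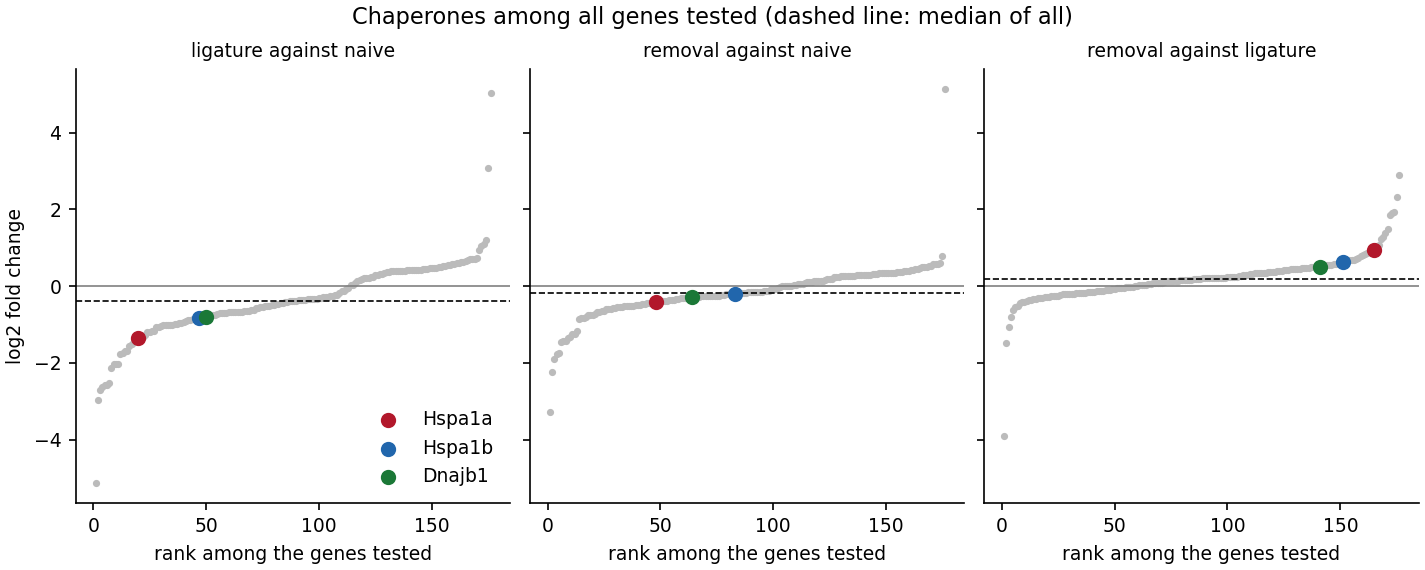
Log2 fold changes of all 176 genes tested, in rising order, with the 3 chaperones marked and the median of all genes dashed. Hspa1a lies 20th from the bottom with the ligature and 12th from the top on removal against ligature.

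Within the library sets the members kept the same directions. Hspa1a with the ligature stood at -1.41 relative to naive in set A (1 ligature library against 2 naive) and at -1.23 in set B (2 against 2), Hspa1b at -0.83 and -0.71, and Dnajb1 at -0.66 and -0.85, all log2 ratios of mean normalised counts. For removal against ligature Hspa1a stood at 0.94 in set A (3 against 1) and 0.65 in set B (1 against 2), Hspa1b at 0.58 and 0.31, and Dnajb1 at 0.40 and 0.29. For removal against naive the values were -0.47 and -0.58 for Hspa1a, -0.26 and -0.40 for Hspa1b, and -0.26 and -0.56 for Dnajb1. No test was run within a set. Naive libraries of set A had more Hspa1a than those of set B (mean 2111 against 1692), and more Hspa1b (3738 against 2899).

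Hspa1a took a smaller share of the Hsp70 pair in every ligature and removal library than in any naive library. Tests of the ratio could not pass after adjustment with 3 or 4 libraries a group. Hspa1a made up 37.0%, 35.2%, 37.0% and 36.7% of the counts of the Hsp70 pair in naive replicates 1 to 4. Its share was 27.4%, 27.1% and 30.3% in ligature replicates 1 to 3 and 33.9%, 33.3%, 30.7% and 33.8% in removal replicates 1 to 4. Naive libraries were highest and ligature libraries lowest, without overlap between the 3 groups in raw counts, with means of 36.5% ± 0.859 (SD, n = 4), 28.3% ± 1.79 (n = 3) and 32.9% ± 1.5 (n = 4). The 95% Wilson intervals, which cover counting error only, ran from 34.1% to 38.7% over naive libraries and from 25.2% to 32.0% over ligature libraries, while those of removal replicate 3 (29.2% to 32.2%) and ligature replicate 3 (28.7% to 32.0%) overlapped. The upper ends of removal replicates 1, 2 and 4 (35.7%, 34.6% and 35.0%) also lay above the lower end of naive replicate 2 (34.1%). In the authors' batch-corrected values ligature replicate 3 (31.0%) lay above removal replicate 3 (30.7%), so those groups overlapped there. Without removal replicate 1 the removal mean was 32.6% ± 1.64 (n = 3). A share within a library does not depend on the scaling between libraries.

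**Figure D5:**
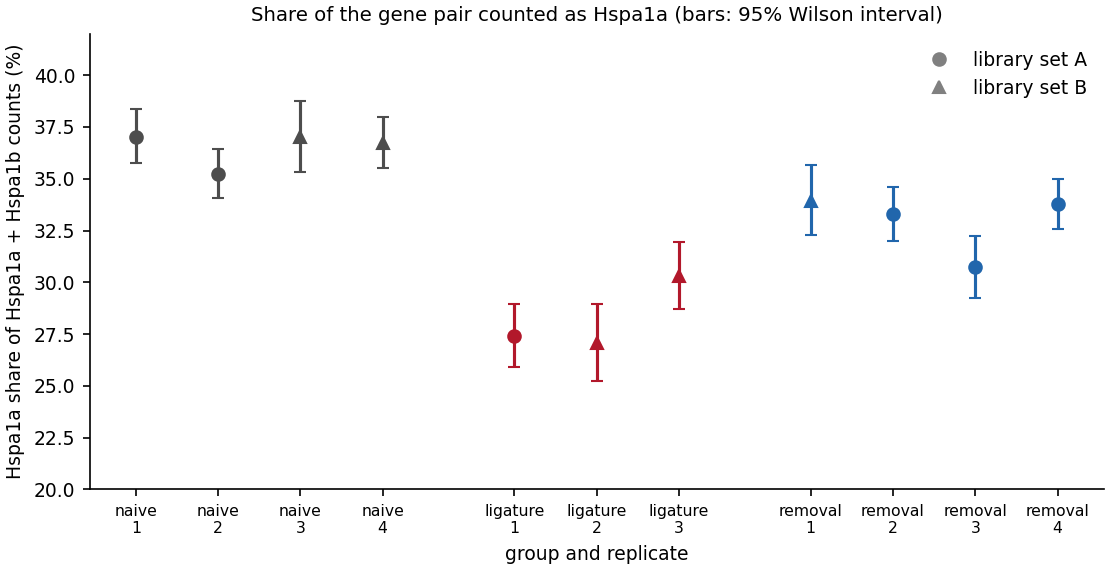
Share of Hspa1a in the summed raw counts of Hspa1a and Hspa1b in each library, in percent, with the 95% Wilson interval (counting error only); the axis starts at 20%. Naive libraries lie between 35.2% and 37.0%, removal libraries between 30.7% and 33.9%, and ligature libraries between 27.1% and 30.3%.

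In log2 terms the ratio of Hspa1a to Hspa1b was -0.80 ± 0.05 in naive, -1.35 ± 0.13 in ligature and -1.03 ± 0.10 in removal libraries. It was lower by 0.55 with the ligature (exact permutation test, two-sided p = 0.0571, the smallest that 3 libraries against 4 allow) and lower by 0.23 after removal relative to naive (exact p = 0.0286, the smallest for 4 against 4). Removal and ligature libraries differed by 0.32 (exact p = 0.0571). Adjusted over the 9 ratios and comparisons each of these had p = 0.129 in the permutation test. With these group sizes no ratio could have passed, so the adjusted values do not decide whether the ratio differs. Without removal replicate 1 the removal values differed from naive by -0.25 and from ligature by 0.30. The difference had the same sign in both library sets (-0.58 and -0.54 for ligature against naive). Hspa1a over Dnajb1 was lower by 0.56 with the ligature (exact p = 0.0571, adjusted p = 0.129), again with no overlap of the groups. Hspa1b over Dnajb1 differed by -0.01 between ligature and naive (-0.96 ± 0.14 against -0.95 ± 0.14; exact permutation p = 0.971). The antisense overlap and the shared letters described above bear on the counts of this pair, and their part in the changed share was not tested.

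Per kilobase of full transcript length Dnajb1 had the most normalised counts of the 3 in every group and Hspa1a the fewest. In naive libraries Dnajb1 had 2124 ± 252 normalised counts per kilobase, Hspa1b 1184 ± 213 and Hspa1a 641 ± 99.8 (SD, n = 4). With the ligature these levels were 1220.1 ± 168, 670.4 ± 108 and 251 ± 52.9 (n = 3), and after removal 1732 ± 265, 1034 ± 195 and 480.1 ± 98.2 (n = 4). Neighbours in this order did not overlap within any group. The levels of both Hsp70 copies depend on how reads common to both were counted. If such reads were left out, full length is too long a divisor for both copies. The order is therefore one of counts, and uncertain as an order of abundance.

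Across the 11 libraries the members followed each other. On the scale of log2(normalised count + 1), Pearson's r was 0.97 between Hspa1a and Hspa1b, 0.96 between Hspa1b and Dnajb1 and 0.96 between Hspa1a and Dnajb1. After group means were subtracted it was 0.94, 0.92 and 0.81. These are descriptions over libraries that share scaling and library set, so no p is given. The r between Hspa1a and Hspa1b also depends on how reads common to both were counted. Genes other than the members reached r of 0.96 with Hspa1b and Dnajb1 as well, as given next. Among genes with a mean of 50 or more normalised counts, the closest to Hspa1a were Zfp36, which destabilises cytokine transcripts, the vesicle-traffic GTPase Rab31 and the zinc finger factor Klf6 (r = 0.94, 0.93 and 0.93; 0.73, 0.78 and 0.62 after subtraction of group means). Closest to Hspa1b were Rab31, the glucosylceramide synthase Ugcg and Abtb2 (r = 0.96, 0.96 and 0.95; 0.91, 0.95 and 0.90 after subtraction). Closest to Dnajb1 were the epidermal growth factor receptor ligand Hbegf, Tnfaip2 and the transcription factor Cebpb (r all 0.96; 0.91, 0.95 and 0.89 after subtraction).

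Of a list of 41 heat shock genes (chaperones, co-chaperones and heat shock factors), the 3 members were the ones in the table; the others, such as Hsph1, Hspb1, Hspa8 and Hsp90aa1, were not analysed here. Of 23 endoplasmic reticulum stress response genes 1 was in the table, Ppp1r15a, whose product directs protein phosphatase 1 to the translation factor eIF2alpha. It fell from 1621 ± 206 normalised counts in naive to 1151 ± 133 in ligature libraries (log2 fold change -0.49, edgeR adjusted p = 0.00638), a call lost with TMM factors (-0.14). In removal libraries it stood at 1109 ± 136, lower than naive by 0.55 on the log2 scale (edgeR adjusted p = 0.0119), and relative to ligature at -0.05, where the chaperones were higher. Without removal replicate 1 both values were close to these, at -0.53 and -0.04. The gap between Ppp1r15a and the chaperones was not tested.

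Genes of the rapid transcriptional response to stress and handling were lower beside the chaperones with the ligature. Of 54 genes on that list 28 were in the table, which looks selected on these groups, so the counts below are not independent evidence. With the ligature 28 of 28 were called lower, against 56.8% of all genes tested, with a median log2 fold change of -0.84 against -0.38. With TMM factors 21 were, against 29.0%. Fos went from 13551 ± 1372 in naive to 7102 ± 774 in ligature and 9967 ± 1438 in removal libraries, Egr1 from 17867 ± 1210.2 to 8899 ± 683 and 12226 ± 1863, and the stress factor Atf3 from 1731 ± 503 to 422 ± 114 and 673 ± 205. Relative to naive, 20 of the 28 were called lower after removal (71.4%, against 24.4% of all genes), and 13 with TMM factors (46.4% against 13.1%). Relative to ligature 11 were called higher (39.3%, against 17.0%), and 4 with TMM factors (14.3% against 9.66%). Without removal replicate 1 these counts were 17 lower and 12 higher with the deposited size factors. The shares called lower were 60.7% against 18.3% of all genes, and those called higher 42.9% against 21.7%. The part of this response in the chaperone differences was not tested. Of 53 markers of 13 cell types 2 were in the table. Krt10, a keratin of suprabasal cells, rose with the ligature, from 93534 ± 11613 to 145632 ± 36955 normalised counts (log2 fold change 0.64, edgeR adjusted p = 0.0182). The macrophage marker Cd68 fell from 287 ± 54.6 to 180 ± 10.2 (-0.67, edgeR adjusted p = 0.00402; -0.31 and not called with TMM factors). In removal libraries Krt10 stood at 132468 ± 32347, with a log2 value of 0.50 against naive that was not called (0.70 and called with TMM factors, 0.65 and called without removal replicate 1) and -0.14 against ligature. Cd68 stood at 222 ± 14.2, at -0.37 against naive and 0.30 against ligature, neither called. Their part in the chaperone differences was not tested either, and basal keratinocyte markers were not analysed here, so the epithelial label rests on the protocol and on Krt10.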

How the data were processed

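RNA sequencing of 11 libraries (polyA selection, strand-preserving kit, per the labels' protocols) was analysed from 1 deposited table, in which 178 of 993339 rows name a gene. The authors deposited raw counts as whole numbers. Their deposited normalised values, a signal, are those counts over a size factor for each library (0.757 to 1.21). Batch-corrected values, deposited by the authors as a score on the same linear scale, had 7 values below 0; the method of correction is not given in the sources used here. Tools in the submitters' processing notes, listed without roles, are HTSeq 2.01, TopHat2 2.1.1, DESeq2 1.36.0 and cutadapt 2.10, and the build is GRCm39.

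Tests used the quasi-likelihood fit of edgeR 4.0.16 in R 4.3.3 on the raw counts of all 11 libraries, with 1 mean for each group, scaled by the deposited size factors, the default expression filter (176 genes tested) and Benjamini-Hochberg adjustment over them, two-sided, with genes called at an adjusted p under 0.05. SE is the log2 fold change over the root of F. The library sets were read from the deposited correction by trying 957 divisions; the best left a median residual of 4.12e-05% of the mean and the next 1.65%. Replicates differed by more than counting noise (smallest chi-square per degree of freedom 20.8). Ratios of members were tested with exact permutation tests (scipy 1.17.1). Alternatives were TMM and median-of-ratios factors, 2 other count filters, DESeq2 1.42.0, a replicate block, a library set term, the 2 groups alone, both Hsp70 copies added up, batch-corrected values for ratios, and each library left out. Named genes were the members, the heat shock list genes in the table, the 3 genes most like each member (leaving out predicted models), Fos, Egr1 and Atf3, and cell type markers; Ppp1r15a was added after its values were seen. The members and lists were chosen with earlier results of these data known.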

Additional observations from a re-analysis of the deposited data

How the results depend on the processing

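The lower level of all 3 chaperones with the ligature was called under every alternative run. Values that changed side or sign were as follows. For removal against naive, Hspa1b stood at 0.0066 with TMM factors, against -0.20; with the library set term Hspa1a, Hspa1b and Dnajb1 were called at -0.49, -0.29 and -0.37 and 126 genes were called instead of 66 (40 higher, 86 lower); DESeq2 called Hspa1a at -0.42 (adjusted p = 0.0493). For removal against ligature the replicate block left 8 of 35 calls and took the calls of Hspa1a (0.88), Hspa1b (0.58) and Dnajb1 (0.46). Whether same-numbered libraries were collected or processed together is not given in the sources used here. The correlation of their deviations from group means ran from -0.48 to 0.53 over 10 pairs, 2 of which were best with their own number. The block gave 139 calls for ligature against naive and 49 for removal against naive. The cause was not tested. With 1 library left out, counts ran from 130 to 154 (ligature against naive), 38 to 78 (removal against naive; 43, 42 and 38 without naive replicate 1, naive replicate 4 and removal replicate 3) and 0 to 49 (removal against ligature, with 49 to 72 genes at an unadjusted p under 0.05 in the 4 edgeR fits with 0 calls). Hspa1a then ran from -0.52 to -0.32 for removal against naive and from 0.78 to 1.06 for removal against ligature, where Hspa1b ran from 0.50 to 0.74 and Dnajb1 from 0.42 to 0.62. The log2 ratio of Hspa1b to Dnajb1, ligature against naive, ran from -0.090 to 0.042 and changed sign without naive replicate 1 or 2 or ligature replicate 1 or 2 (0.034, 0.017, 0.0056 and 0.042). TMM factors gave 64 higher and 51 lower calls for ligature against naive (deposited factors 50 and 100), 50 and 23 for removal against naive (23 and 43), and 17 and 12 for removal against ligature (30 and 5); median-of-ratios factors gave 16 higher and 30 lower in the last. Of all values recomputed, 271 stayed on their side of the threshold (for counts, within 1.5 times in total, whatever the split by direction), 29 became weaker, 7 became stronger and 5 changed sign. With 3 or 4 libraries a group, or 1 library left out, ratio tests could not pass after adjustment. Ratio values in this tally could therefore change sign but not their side of the threshold.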
